A study of Homo sapiens with 8 samples.

Results

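The 10 genes described here are FOS, FOSB, FOSL1, JUN, JUNB, JUND, EGR1, NR4A1, NR4A2 and CREM, a set of immediate early and CREB-induced genes. They were taken by name, by a rule that uses no measured value, from 62649 gene IDs counted in SW480 and SW620 cells, and each name matched 1 ID, although the set was chosen with earlier results of these data known. SW480 and SW620 are human colorectal adenocarcinoma lines, and per the labels the cultures of both lines expressed fluorescent immunoproteasomes (B8-mCherry, a fusion of a proteasome subunit with a red fluorescent protein). Poly-A RNA was sequenced in 8 libraries, 2 each from SW620 with caffeine, SW620 without it (control), SW480 with caffeine and SW480 control, and the labels state at least 2 biological replicates per group. For SW620 cultures the labels list 72-hour treatments with 30, 60, 100, 250 or 500 µM caffeine and a 28-day culture in 125 µM caffeine. They give neither the dose nor the time of the sequenced libraries, and describe no caffeine treatment of SW480 apart from the library names.

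Immediate early genes are transcribed within minutes of a stimulus from factors already present in the cell, such as SRF with its ternary complex partners and CREB. CREB is phosphorylated by protein kinase A when cAMP rises, and caffeine is a textbook inhibitor of the phosphodiesterases that break cAMP down and a blocker of adenosine receptors. FOS and JUN proteins pair through leucine zippers to form AP-1, which in intestinal epithelium is a well known effector of growth factor and RAS signalling. The NR4A genes encode nuclear receptors whose activity is set mainly by how much is made, and CREM encodes relatives of CREB, among them a short inducible repressor made from an internal start.

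The promoter stretches below are shown because they hold letters usually said to receive the CREB signal and, in EGR1 alone among them, the SRF signal. They come from RefSeq windows on GRCh38.p14 and end before the annotated start of transcription, and capitals mark TGACGTCA, the full cAMP response element (CRE), its core TGACG read on either strand (CGTCA when read on the other), and CArG boxes, the sequence that SRF binds. The FOS stretch is chr14:75278578-75278773 (plus strand), that of FOSB chr19:45467746-45467994 (plus), that of JUND chr19:18281623-18281872 (minus) and that of EGR1 chr5:138465229-138465478 (plus). For CREM only the 30 bases around the element at the internal start are given, chr10:35195841-35195870 (plus).
FOS: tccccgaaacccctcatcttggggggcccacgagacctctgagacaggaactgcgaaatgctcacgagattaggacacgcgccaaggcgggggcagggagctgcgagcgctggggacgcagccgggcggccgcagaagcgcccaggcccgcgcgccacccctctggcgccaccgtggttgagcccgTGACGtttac
FOSB: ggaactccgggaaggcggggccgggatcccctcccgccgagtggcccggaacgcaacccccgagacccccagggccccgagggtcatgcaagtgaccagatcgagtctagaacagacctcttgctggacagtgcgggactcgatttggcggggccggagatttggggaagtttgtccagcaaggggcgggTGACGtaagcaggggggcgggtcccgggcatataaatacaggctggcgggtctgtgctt
JUND: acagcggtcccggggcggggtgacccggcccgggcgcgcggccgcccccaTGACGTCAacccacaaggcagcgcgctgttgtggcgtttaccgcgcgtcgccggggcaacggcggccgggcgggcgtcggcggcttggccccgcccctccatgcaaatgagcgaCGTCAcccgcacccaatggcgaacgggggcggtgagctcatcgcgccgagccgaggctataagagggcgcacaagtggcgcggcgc
EGR1: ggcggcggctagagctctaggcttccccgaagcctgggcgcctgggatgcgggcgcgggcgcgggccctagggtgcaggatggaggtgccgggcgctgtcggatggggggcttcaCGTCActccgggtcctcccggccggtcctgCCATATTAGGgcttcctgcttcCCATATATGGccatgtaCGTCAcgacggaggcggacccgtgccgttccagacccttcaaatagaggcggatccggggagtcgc
CREM: gagctgcacatTGACGTCAgctccgagtca

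In these windows the core TGACG began 64 bases before the RefSeq start in FOS, 60 before it in FOSB, 123 before it in JUN and 137 before it in JUNB. JUND held the full element at position -200 relative to its start. For CREM 7 windows were searched, and only that of the internal start held the full element, at position -50. Another CREM window held 2 cores without the full element, and the rest of the CREM windows held no match. The EGR1 window held 2 cores and 2 CArG boxes, the boxes at 105 and 83 bases before the start. No CArG box was in the other windows searched, among them those of FOS and FOSB. Sequence more than 250 bases before the start was not searched, so sites farther upstream would not be seen. No match was found in the windows of NR4A1, which says only that these letters are not in those stretches, and FOSL1 and NR4A2 were not searched. For scale, among 35116 such windows of 250 bases over all genes, searched on both strands, TGACG was in 21.2%, TGACGTCA (which contains TGACG on both strands) in 1.65% and a CArG box in 1.16%.

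The libraries held 15760259 to 23269315 reads assigned to genes. The values below are CPM (counts scaled to a common library size), scaled between libraries by edgeR's TMM method, and intervals and floors on counts cover counting error only. Mitochondrial genes took 1.63% of the reads of SW480 caffeine replicate 2, where every other library had 4.38% to 6.16%. A fit without mitochondrial genes called 639 genes in SW480, against 636 with them, and a fit without that library called 56. All 9 colorectal epithelial markers were detected in SW620 caffeine, SW620 control and SW480 caffeine libraries, and 8 of 9 in SW480 control libraries, where KRT20 was at 0. Their summed level was 12523 to 13960 CPM in SW620 caffeine and 10470 to 10544 CPM in SW620 control libraries, and 6563 to 6900 CPM in SW480 caffeine and 4623 to 6015 CPM in SW480 control libraries. The 5 leukocyte markers summed to at most 4.44 CPM and the 4 endothelial markers to at most 15.6 CPM in any library. The 5 fibroblast markers summed to 45.8 to 48.6 CPM in SW620 caffeine, 37.8 to 40.0 CPM in SW620 control, 5.60 to 7.41 CPM in SW480 caffeine and 6.13 to 6.17 CPM in SW480 control libraries. Between the controls of the lines they did not move together. LUM, at 0 in SW480, and COL1A1 (log2 0.97) were higher in SW620, and PDGFRB (-1.55) was lower. DCN was at 0 in SW620 caffeine and in SW480 libraries, and COL1A2 at 0 in SW620 control libraries. With caffeine in SW620, KRT19 (log2 1.05) and KRT20 (1.97) of the epithelial markers were higher and CDX2 (-0.65) was lower, and COL1A1 (1.30) of the fibroblast and PECAM1 (0.67) and VWF (0.79) of the endothelial markers were higher (edgeR adjusted p of 0.000193 to 0.0391). In SW480 no marker was called by edgeR (at an unadjusted p under 0.05 were KRT8, KRT19, CDX2, VIL1, VWF and CD14), and the part of these markers in the results below was not tested. In bulk RNA, fewer cells that transcribe a gene and less RNA of it per cell cannot be told apart.

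Caffeine was first compared with no caffeine within SW620. NR4A1 and FOS rose, and the other 8 genes did not pass the test. NR4A1 was 2.15-fold and FOS 1.27-fold higher, and the most abundant of the genes, EGR1 and JUN, were close to their controls. The 2 genes called out of 10 stand beside 14.4% of all 17671 tested genes called in this comparison. By direction, 8.1% of all tested genes were higher and 6.25% lower. The median log2 fold change of the 10 genes was 0.07, against -0.01 over all tested genes. In 7 of the 10 genes the caffeine and control libraries did not overlap, which was also so for 62% of all tested genes.

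**Figure D1:**
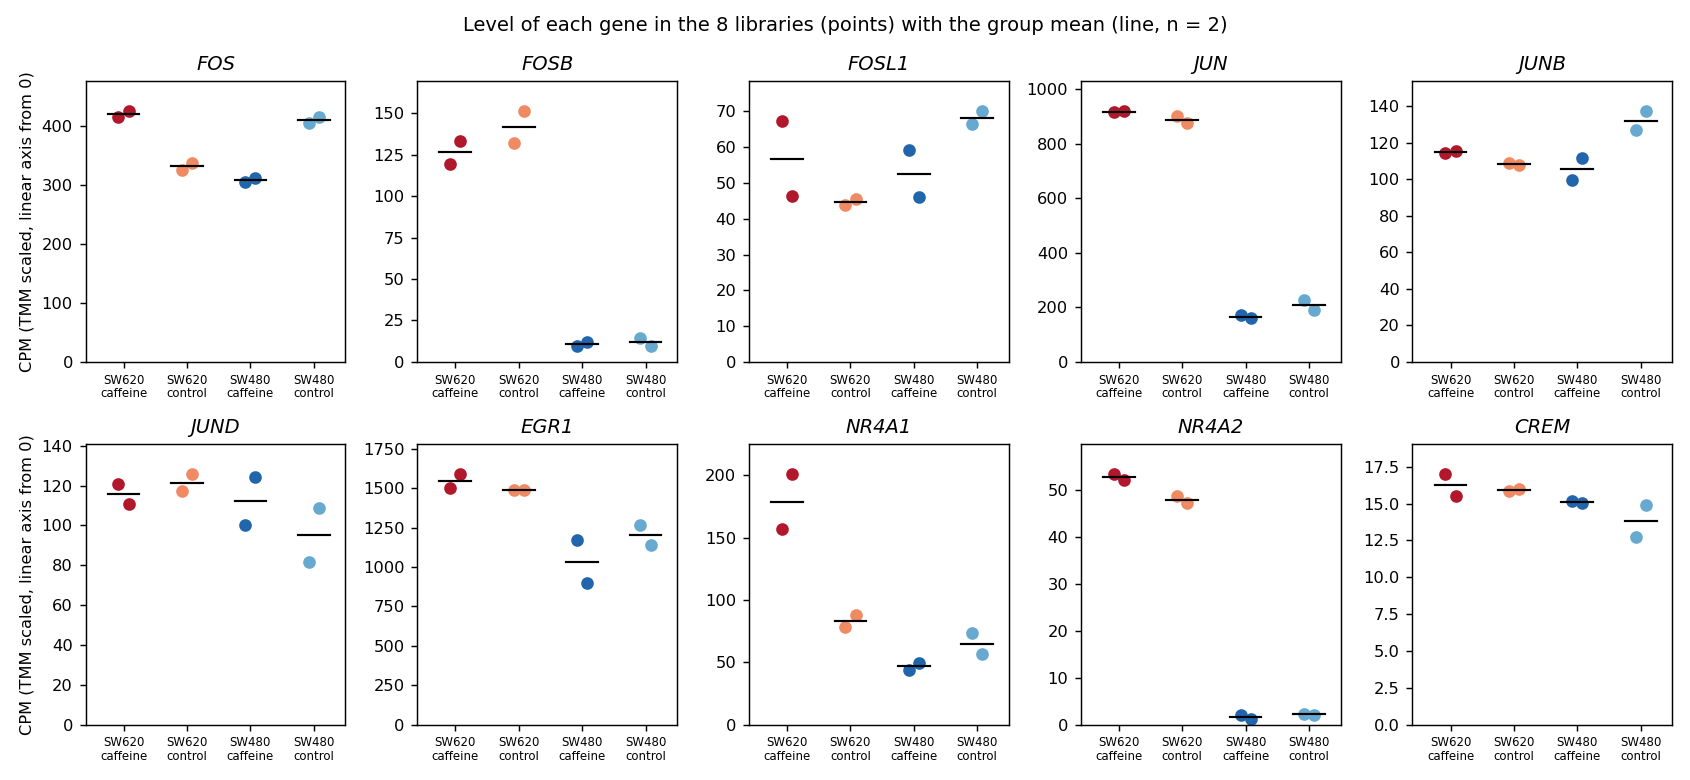
Level of each of the 10 genes, a panel each, as CPM after TMM scaling on a linear axis from 0, with points for libraries and lines for group means, in the order SW620 caffeine, SW620 control, SW480 caffeine and SW480 control. NR4A1 in SW620 lies at 157 and 201 CPM with caffeine, above its controls at 78.6 and 88.0 CPM, while FOSB, JUN and NR4A2 separate the lines.

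NR4A1 (Nur77, an orphan nuclear receptor) had 157 and 201 CPM in SW620 caffeine libraries, against 78.6 and 88.0 CPM in SW620 control libraries. Both caffeine libraries stood well above both controls. The log2 fold change was 1.10 ± 0.15 (SE, edgeR's quasi-likelihood test, adjusted p = 0.00013, n = 2 per group), a 2.15-fold difference with an interval of 0.78 to 1.42 on the log2 scale. NR4A1 shares 754 exon bases, 10.3% of its exon length, with AC025259.3, annotated on the opposite strand. The strand setting of the counting was not given in the sources used here, so that reads of the pair may not have been told apart. Each library had 7.36% to 8.37% of its reads set aside as ambiguous and counted for no gene. Reads on the shared bases may be among them. AC025259.3 itself had 16.7 CPM in each SW620 caffeine library, against 8.00 and 11.3 CPM in the controls (log2 fold change 0.79, edgeR adjusted p = 0.0153). This was far below the NR4A1 level, and the effect of the overlap on the NR4A1 counts was not tested.

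FOS, the AP-1 subunit most used as a marker of recent stimulation, had 415 and 425 CPM in SW620 caffeine libraries, against 325 and 337 CPM in SW620 control libraries. The pairs did not overlap and were each tight, with means of 419.9 ± 6.83 CPM with caffeine and 331 ± 8.34 CPM without (SD, n = 2 each). The log2 fold change was 0.34 ± 0.11 (SE, edgeR adjusted p = 0.0485), just under the threshold of 0.05. This call was lost when any one of the 4 SW620 libraries was left out (adjusted p of 0.145 to 0.334), with the value itself staying between 0.33 and 0.38 over all 15 alternatives.

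FOSL1 (FRA1, a FOS relative linked to invasive growth) had 67.3 and 46.3 CPM in SW620 caffeine libraries, against 43.9 and 45.6 CPM in SW620 control libraries. Caffeine replicate 1 stood apart from the controls, and replicate 2 was just above them. Its log2 fold change of 0.34 ± 0.17 was not called (edgeR adjusted p = 0.188), and it was called in 1 of 15 alternatives. Without caffeine replicate 1 it was 0.060 (adjusted p = 0.888), and without caffeine replicate 2 it was 0.59 (0.0466). FOSB, whose protein is known for accumulating under repeated stimulation, had 119.7 and 133 CPM in SW620 caffeine libraries, against 132 and 151 CPM in control libraries, which overlapped (log2 fold change -0.16, edgeR adjusted p = 0.533).

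The JUN genes, which encode the partners that every FOS protein needs, were nearly level in SW620. JUN had 916 and 920.0 CPM with caffeine, against 900.3 and 878 CPM without. Its log2 fold change was 0.05, with a 95% interval of -0.21 to 0.30. JUNB, which in many settings restrains JUN, had 114 and 115 CPM with caffeine, against 109 and 108 CPM without (0.08, interval -0.17 to 0.33). JUND, the family member least dependent on stimulation, had 121 and 111 CPM with caffeine, against 117 and 126 CPM without (-0.07, interval -0.38 to 0.24). The JUN and JUNB pairs lay close together without overlapping, and the JUND pairs overlapped. JUNB shares 259 exon bases (14.2% of its exon length) with HOOK2 on the opposite strand, and reads of this pair too may not have been told apart. HOOK2 was not far below JUNB, at 65.7 and 61.3 CPM with caffeine, against 76.8 and 74.7 CPM without (log2 -0.25, edgeR adjusted p = 0.237). In SW620 controls against SW480 controls HOOK2 was higher (0.35, edgeR adjusted p = 0.0307) and JUNB lower. The effect of this overlap on the JUNB counts was not tested.

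Among the remaining SW620 genes, EGR1, a zinc finger factor driven by SRF, had 1505 and 1593 CPM with caffeine, against 1488 and 1492 CPM in controls (log2 fold change 0.06, interval -0.24 to 0.35). NR4A2 (Nurr1), which is both an early gene and a CREB target, had 53.5 and 52.1 CPM with caffeine, against 48.7 and 47.3 CPM without. Its pairs did not overlap, and the log2 fold change of 0.14 was not called (interval -0.16 to 0.44). CREM had 17.0 and 15.6 CPM with caffeine, against 15.9 and 16.0 CPM without (0.03, interval -0.28 to 0.34). The CREM counts cover all its transcripts together, so the inducible short forms from the internal start were not seen separately, and 205 of its exon bases are shared with AL392046.1 on the opposite strand.

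The same comparison within SW480 called none of the 10 genes by edgeR's test, beside 3.6% of all tested genes (1.67% higher and 1.93% lower). At an unadjusted p under 0.05 there were 5 (FOS, FOSL1, JUN, JUNB and NR4A1), all with lower levels under caffeine, and DESeq2's Wald test and limma-voom each called FOS alone. Of the 10 genes 8 had negative log2 fold changes, with a median of -0.33 against 0.00 over all tested genes. In 6 the caffeine and control libraries did not overlap, as in 43% of all tested genes.

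FOS in SW480 had 305 and 312 CPM with caffeine, against 404 and 415 CPM in controls. The 2 pairs were again tight and far from overlapping. The log2 fold change was -0.41 ± 0.11 (SE, edgeR adjusted p = 0.0503), just above the threshold and so not called, and it passed in 4 of 15 alternatives. NR4A1 in SW480 had 44.1 and 49.6 CPM with caffeine, against 73.2 and 56.3 CPM in controls. Control replicate 1 was the farthest from the caffeine pair, and the log2 fold change was -0.46 ± 0.15 (edgeR adjusted p = 0.11). AC025259.3, its opposite-strand neighbour, had 2.77 and 1.58 CPM with caffeine, against 3.81 and 3.04 CPM in SW480 controls (-0.71, adjusted p = 0.185).

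JUNB in SW480 had 99.9 and 112 CPM with caffeine, against 127 and 137 CPM in controls (log2 fold change -0.32, edgeR adjusted p = 0.143). JUN had 171 and 162 CPM with caffeine, against 227 and 192 CPM in controls (-0.33, adjusted p = 0.147). FOSL1 had 59.3 and 46.0 CPM with caffeine, against 66.4 and 70.1 CPM in controls (-0.38, adjusted p = 0.217). In these 3 genes both caffeine libraries were below both controls, by less than the test required. Without SW480 control replicate 2, JUN (edgeR adjusted p = 0.031), NR4A1 (0.015) and FOS passed. Without SW480 control replicate 1 the values of JUN (-0.20, adjusted p = 0.52) and NR4A1 (-0.26, 0.496) were smaller.

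Levels of the other genes in SW480 overlapped or nearly met. EGR1 had 1169.6 and 897 CPM with caffeine, against 1271 and 1142 CPM in controls (log2 fold change -0.22, interval -0.52 to 0.07). JUND had 100.2 and 124 CPM with caffeine, against 81.4 and 109 CPM in controls (0.24, interval -0.07 to 0.55). FOSB was low, at 9.53 and 11.7 CPM with caffeine, against 14.7 and 9.86 CPM in controls (-0.20, interval -0.59 to 0.19). NR4A2 was close to absent, at 2.06 and 1.19 CPM with caffeine, against 2.36 and 1.98 CPM in controls (-0.48, interval -1.05 to 0.09). CREM, at 15.2 and 15.1 CPM with caffeine against 12.8 and 14.9 CPM in controls, had a log2 fold change of 0.13 (interval -0.18 to 0.44).

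Whether the caffeine effects differed between the lines was tested as the difference of the log2 fold changes, SW620 minus SW480. NR4A1 and FOS passed, both in the direction of SW620, beside 6.71% of all tested genes called (4.24% upward and 2.47% downward). For NR4A1 the difference was 1.57 ± 0.22 (SE, edgeR adjusted p = 0.000355), from effects of 1.10 in SW620 and -0.46 in SW480. For FOS the difference was 0.75 ± 0.16 (edgeR adjusted p = 0.00847), from effects of 0.34 in SW620 and -0.41 in SW480. The NR4A1 difference passed in all 14 alternatives that gave one, and the FOS difference in 12 of 14, missing without SW620 control replicate 1 (adjusted p = 0.0769) or replicate 2 (0.0577). FOSL1 missed the threshold (0.72 ± 0.23, edgeR adjusted p = 0.0749) and passed in 4 of 14 alternatives. For the other 7 genes the differences ran from -0.31 in JUND to 0.61 in NR4A2, with adjusted p of 0.157 or more.

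**Figure D2:**
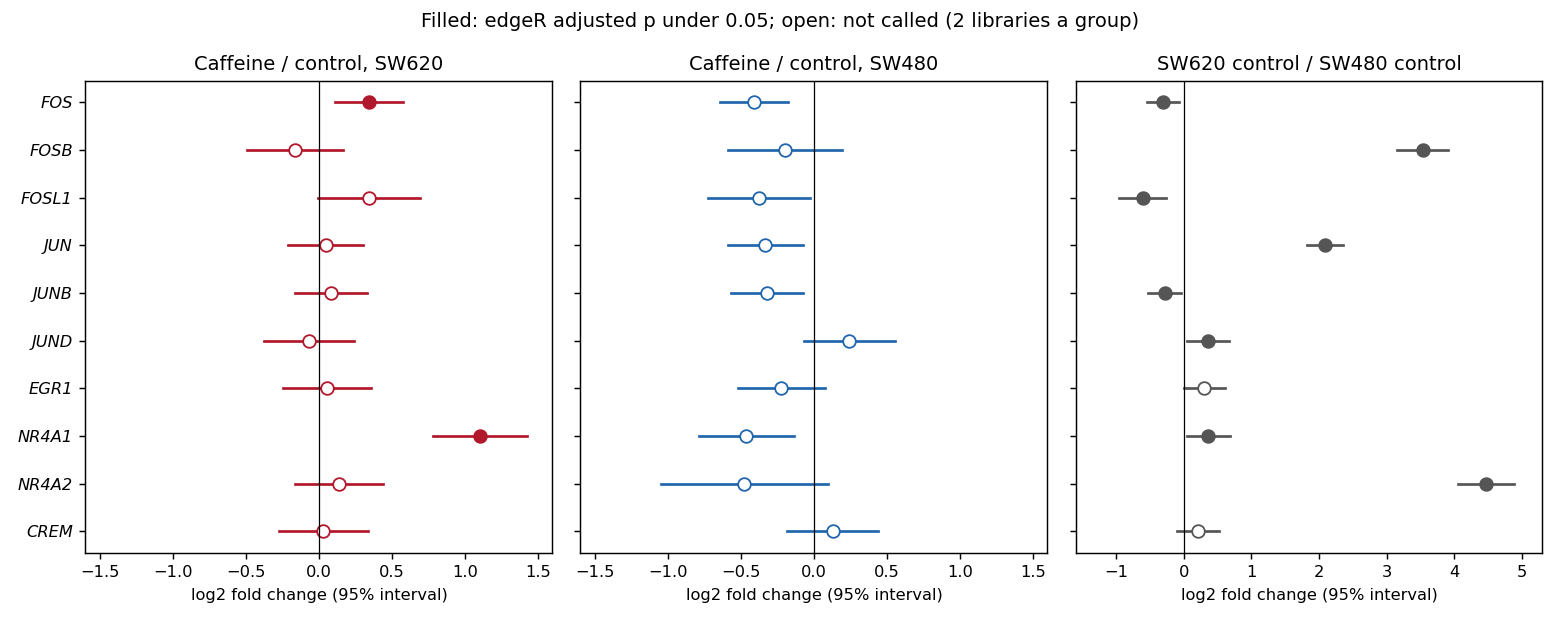
Log2 fold change of each gene with its 95% interval, caffeine against control in SW620 (left) and SW480 (middle) and SW620 control against SW480 control (right, on a wider axis), with filled points for genes called by edgeR's quasi-likelihood fit. NR4A1 lies at 1.10 in SW620 and -0.46 in SW480, FOS at 0.34 in SW620 and -0.41 in SW480, while the right panel reaches 4.46 for NR4A2 and 3.53 for FOSB.

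The lines were also compared without caffeine, SW620 control against SW480 control. Here 8 of the 10 genes differed, 5 higher in SW620 (FOSB, JUN, JUND, NR4A1 and NR4A2) and 3 lower (FOS, FOSL1 and JUNB), beside 65.6% of all tested genes called (33% higher and 32.6% lower). In all 10 the libraries of the 2 lines did not overlap, as in 83.4% of tested genes. The 3 largest differences were those of NR4A2, FOSB and JUN, while the log2 values of the others ran from -0.61 to 0.36.

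NR4A2 had 48.7 and 47.3 CPM in SW620 controls, against 2.36 and 1.98 CPM in SW480 controls, a large difference (log2 4.46 ± 0.19, SE, edgeR adjusted p = 3.25e-12). FOSB had 132 and 151 CPM in SW620 controls, against 14.7 and 9.86 CPM in SW480 controls (log2 3.53 ± 0.18, adjusted p = 2.34e-11). JUN had 900.3 and 878 CPM in SW620 controls, against 227 and 192 CPM in SW480 controls (log2 2.09 ± 0.13, adjusted p = 2.39e-10). All 3 passed in every one of the 14 alternatives.

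FOSL1 was lower in SW620, with 43.9 and 45.6 CPM in SW620 controls against 66.4 and 70.1 CPM in SW480 controls (log2 -0.61 ± 0.17, edgeR adjusted p = 0.00387), also in all 14 alternatives. The calls of FOS (log2 -0.31, adjusted p = 0.0227), JUNB (-0.29, 0.0413), JUND (0.35, 0.0432) and NR4A1 (0.36, 0.0456) were near the threshold. FOS passed in 12 of 14 alternatives, JUNB and JUND in 8 each and NR4A1 in 5. Without SW620 control replicate 1, or without replicate 2, 4 of the 10 genes were called. EGR1 (0.30, edgeR adjusted p = 0.0674) and CREM (0.20, 0.233) did not pass.

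To order the genes by level, counts were divided by exon length (GENCODE 29) and scaled to a common total per library (TPM). The length joined the exons of all annotated transcripts, such as 22 for NR4A1 (7295 bases) and 48 for CREM (5699 bases). JUN, JUNB and EGR1 had 1 transcript each. Genes with many transcripts may thus be understated, and the order and the shares below depend on this. EGR1 led in all 4 groups, with means of 1727 TPM in SW620 caffeine, 1615 in SW620 control, 1164 in SW480 caffeine and 1286 in SW480 control libraries. In SW620 it was followed by JUN (907 TPM with caffeine, 854 without) and FOS (454 with caffeine, 348 without). In SW480 FOS came after EGR1 (339 TPM with caffeine, 422 without), and JUN came in the range of JUNB and JUND or just under it, at 167 TPM with caffeine and 198 without. NR4A1 reached 73.8 to 98.0 TPM in SW620 caffeine libraries, against 36.4 to 41.2 TPM in SW620 controls, and 20.3 to 25.7 TPM in SW480 caffeine libraries, against 25 to 34.6 TPM in SW480 controls. The lowest gene was CREM in SW620 (9.99 TPM with caffeine, 9.51 without) and NR4A2 in SW480 (1.44 TPM with caffeine, 1.83 without).

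Some neighbours in this order overlapped, though most did not. JUNB and JUND overlapped in SW620 caffeine and in SW480 caffeine libraries. In SW620 caffeine libraries NR4A1, at 73.8 to 98.0 TPM, overlapped both FOSL1 (87.2 to 123 TPM) and FOSB (74.1 to 85.4 TPM). The gap between EGR1 and the next gene exceeded the spread of the libraries in every group.

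The share of JUN among JUN-family transcripts differed more between the lines than between caffeine and control. JUN made up 67% to 67.9% of the summed TPM of JUN, JUNB and JUND in SW620 caffeine libraries and 66.2% to 67.4% in SW620 controls. In SW480 it made up 26.3% to 30.7% with caffeine and 28.8% to 36.1% without. FOS was the largest part of the FOS family (FOS, FOSB, FOSL1 and FOSL2) in all libraries, between 65.6% and 72.6%. FOSB took 11.2% to 12.8% of that family in SW620 caffeine libraries, against 15.8% to 17.2% in SW620 controls, and at most 1.59% in SW480. FOSL2, a small part, took 3.93% to 4.13% in SW620 caffeine libraries, against 2.08% to 2.27% in SW620 controls. The summed FOS family stood at 664 to 666 TPM in SW620 caffeine libraries, against 511 to 543 TPM in SW620 controls, and at 457 to 501 TPM in SW480 caffeine libraries, against 571 to 601 TPM in SW480 controls. These shares describe transcripts, were not tested, and say nothing of protein or of the dimers formed.

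**Figure D3:**
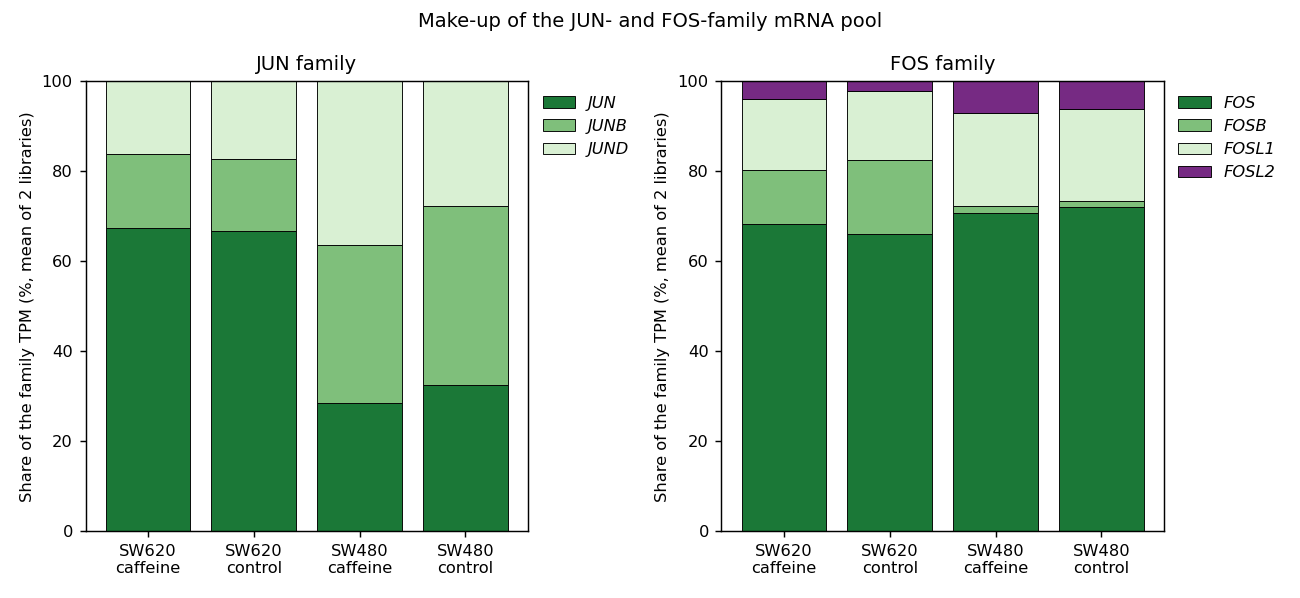
Share of each gene in the summed TPM of its family, in percent, for the JUN family (left) and the FOS family (right), as stacked means of the 2 libraries of each group. The JUN part of the bar is about the same with and without caffeine in SW620 (libraries at 66.2% to 67.9%) and much smaller in SW480 (26.3% to 36.1%).

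Further AP-1 partners, a list of 11 other bZIP factors, were all tested. In SW620 3 rose and 1 fell with caffeine, beside 8.1% and 6.25% of all tested genes. In SW480 none passed by edgeR (5 at an unadjusted p under 0.05), beside 3.6% of all tested genes called. FOSL2 (FRA2, the FOS relative outside the 10 genes) had 54.2 and 55.5 CPM in SW620 caffeine libraries, against 24.5 and 23.7 CPM in controls (log2 1.19 ± 0.14, edgeR adjusted p = 3.01e-05). MAFF, a small MAF protein that lacks an activation domain, had 40.2 and 33.6 CPM with caffeine, against 17.1 and 16.7 CPM without (1.13, 6.08e-05), and its relative MAFK rose too. JDP2, a repressor that pairs with JUN, had 15.8 and 16.8 CPM with caffeine, against 34.4 and 33.3 CPM in SW620 controls (-1.05, 6.45e-05). The list's median was 0.00 in SW620 and -0.19 in SW480.

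Of 18 other early-response genes 16 were tested, of which 5 rose in SW620 and none fell, with a median of 0.29, beside 8.1% of all tested genes higher and 6.25% lower. KLF6, a zinc finger factor induced by serum, had 229 and 256 CPM in SW620 caffeine libraries, against 112 and 121 CPM in controls (log2 1.06, edgeR adjusted p = 2.05e-05). PPP1R15A (GADD34), which brings a phosphatase to the translation factor eIF2, had 157 and 159 CPM with caffeine, against 81.7 and 73.2 CPM without (1.03, 8.02e-05). IER3, which modulates survival signalling, had a log2 fold change of 0.73 (0.000795), and EGR3 and KLF2 were the others. In SW480 the median was -0.24, with 12 of these 16 values negative and 4 positive, and 8 had an unadjusted edgeR p under 0.05. Of the 16 only 1 passed after adjustment, beside 3.6% of all tested genes. This was ZFP36 (tristetraprolin, which promotes decay of AU-rich mRNAs), at 62.9 and 43.5 CPM with caffeine, against 80.5 and 77.5 CPM in controls (-0.58, edgeR adjusted p = 0.0464), and the call was lost in 6 alternatives (adjusted p of 0.0503 to 0.383). Of these the highest was without SW480 caffeine replicate 2, where the value was -0.35, and the next without SW480 control replicate 1 (0.117).

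Genes of the CREB pathway were taken as 2 lists. None of 9 CREB factors, coactivators and SIK kinases was called by edgeR in SW620 (median 0.08) or in SW480 (median -0.22). At an unadjusted p under 0.05 there were 1 in SW620 and 2 in SW480. Over all tested genes 14.4% were called in SW620 and 3.6% in SW480, and with 9 genes the absence of calls is near those shares. Of 13 other CREB-induced genes 10 were tested, and 3 rose in SW620, beside 8.1% of all tested genes. None was called in SW480 by edgeR (1 at an unadjusted p under 0.05), beside 3.6% of all tested genes. PER1, a clock gene with a CRE, had 30.2 and 26.7 CPM in SW620 caffeine libraries, against 9.51 and 10.5 CPM in controls (log2 1.50, edgeR adjusted p = 4.67e-06). NFIL3, a bZIP repressor, had 42.9 and 39.2 CPM with caffeine, against 23.7 and 22.8 CPM without (0.82, 0.000516). PDE4D, a phosphodiesterase that breaks down cAMP, also rose (0.54, 0.0314), and its call was lost without SW620 caffeine replicate 2 (0.387), control replicate 1 (0.227) or control replicate 2 (0.0946). The median of the 10 was 0.56 in SW620 and -0.13 in SW480.

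Upstream, 16 genes for SRF, its ternary complex factors and the kinases that act on early genes held 1 that rose in SW620, MAPK3 (ERK1; log2 0.50, edgeR adjusted p = 0.0161), and none in SW480 by edgeR (4 at an unadjusted p under 0.05), near the shares over all tested genes of 8.1% higher in SW620 and 3.6% called in SW480. The MAPK3 call was lost without SW620 caffeine replicate 1, control replicate 1 or control replicate 2 (adjusted p of 0.112 to 0.178). Downstream, 14 of 20 known AP-1 target genes were tested, and 9 rose in SW620 and none fell, beside 8.1% higher and 6.25% lower over all tested genes. CXCL8, the chemokine interleukin 8, had 178 and 165 CPM in SW620 caffeine libraries, against 56.9 and 64.2 CPM in controls (log2 1.50, edgeR adjusted p = 4.49e-06). VIM (vimentin, an intermediate filament protein) had 992 and 864 CPM with caffeine, against 343 and 347 CPM without (1.43, 9.41e-06). TNC, MMP7, PLAU and PLAUR were among the others, and the list's median was 1.01. In SW480 the median was 0.00, and 3 of the 14 had an unadjusted edgeR p under 0.05. TNC (tenascin C, a matrix protein) alone passed after adjustment there, at 16.6 and 15.8 CPM with caffeine, against 7.56 and 8.35 CPM in controls (1.03, edgeR adjusted p = 0.000802).

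**Figure D4:**
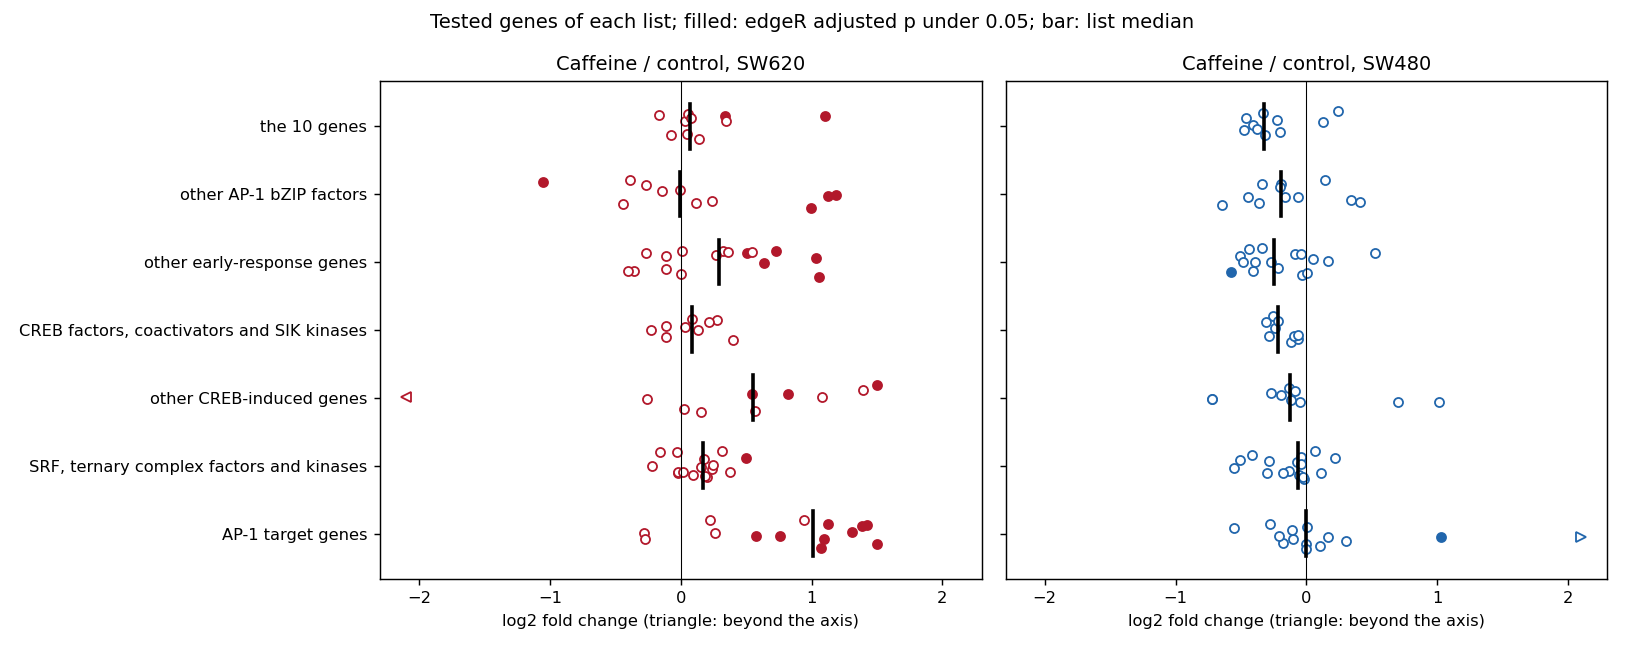
Log2 fold changes (caffeine against control) of the tested genes of each list, SW620 on the left and SW480 on the right, with called genes filled, medians as bars and triangles for values beyond the axis. The median of the AP-1 targets is 1.01 in SW620 and 0.00 in SW480, and that of the 10 genes is 0.07 in SW620 and -0.33 in SW480.

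The difference of the caffeine effects, SW620 minus SW480, was called for 4 of the 11 bZIP factors (3 upward, 1 downward), 7 of the 16 tested early-response genes and none of the 9 CREB factors (edgeR, with 3 at an unadjusted p under 0.05). It was called for 2 of the 10 tested CREB-induced genes, 1 of the 16 upstream genes and 5 of the 14 tested AP-1 targets, all upward. Over all tested genes the share was 6.71%, with 4.24% upward, and that of the upstream genes was near it. The largest among those named were PER1 (1.64), MAFF (1.47), JDP2 (-1.46) and VIM (1.43). These lists come from the same caffeine and control libraries as the 10 genes. They were picked for known roles but with earlier results of these data known, so they are not a separate experiment.

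Between the control libraries of the lines, these lists differed in both directions. Higher in SW620 against SW480 were 4 of 11 bZIP factors, 7 of 16 tested early-response genes, 1 of 9 CREB factors, 6 of 10 CREB-induced genes, 2 of 16 upstream genes and 7 of 14 AP-1 targets. Lower were 5, 7, 2, 4, 7 and 5, in the same order of lists. Over all tested genes 33% were higher and 32.6% lower, and several of these counts lie near those shares. ATF3, a stress-induced bZIP factor, had 67.3 and 79.3 CPM in SW620 controls, against 11.6 and 12.1 CPM in SW480 controls (log2 2.63, edgeR adjusted p = 1.10e-10). FOSL2 was lower in SW620, at 24.5 and 23.7 CPM against 85.8 and 67.7 CPM in SW480 controls (-1.67, 1.62e-08). JDP2 was higher (1.22). Of the early-response genes KLF4 (1.77), EGR3 (1.35) and BTG2 were the most clearly different by adjusted p, all higher in SW620. CRTC2 and CRTC3, coactivators that CREB binds, were lower (-1.25 and -1.02), and CRTC1 was higher (0.36), a call lost in 6 alternatives. Upstream, ELK3, a ternary complex factor, and RPS6KA5, the kinase MSK1, were lower (-4.40 and -1.37) and MAPK8, the kinase JNK1, was higher (1.09). TNC (4.42) was higher and PDE4D (-2.25) lower, and VGF, a neuropeptide precursor, had 0.506 and 0.150 CPM in SW620 controls, against 124 and 155 CPM in SW480 controls. Several targets were nearly missing from one line. CD44, an adhesion receptor, had 10 counts over both SW620 controls, against 12830 over both SW480 controls, while CXCL8 had 2406 counts in SW620, against 1 in SW480. BDNF, a neurotrophin, had 3 counts in SW620, against 530 in SW480, a ratio of 0.00489 with a counting interval of 0.001 to 0.0144. MMP7, a matrix metalloprotease, had 201 counts in SW620 and 0 in SW480, at least 57.8-fold higher against a floor of 3 counts over the group.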

How the data were processed

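Poly-A RNA of 8 libraries was sequenced as single-end reads of 75 bp after a directional kit, per the labels. The authors deposited raw counts per Ensembl gene, made with Trim Galore, STAR 2.7.3a and featureCounts 2.0.5 on hg38, per the submitters' processing notes. The strand setting is not given in the sources used here, and neither is the annotation release. Genes passing edgeR's filterByExpr (17671 of 35897 with any count, among them all 10 genes described) were fitted in edgeR 4.0.16 (R 4.3.3) with TMM scaling and robust quasi-likelihood over 4 group means, with Benjamini-Hochberg adjustment over all tested genes and a threshold of 0.05. The biological coefficient of variation was 10.5%, with 4 residual degrees of freedom. In separate fits per line it was 13.1% in SW480 and 7.0% in SW620. The main fit pooled the lines, so its spread was small for SW480 and large for SW620, which bears on the numbers of calls in each. The alternatives were DESeq2 1.42.0 (size factors and Wald test), limma-voom (limma 3.58.1), no filter, the replicate number as a block, separate fits per line, no mitochondrial genes, and each library left out in turn. Genes, lists, tests and alternatives were chosen with earlier results of these data known. All 10 genes were named. Of each list up to 3 called genes by adjusted p were named per comparison, and others where a count was small, and individual values of 2 listed genes are left out. Coordinates and exon lengths came from GENCODE 29 (GRCh38).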

Additional observations from a re-analysis of the deposited data

Results flagged for a closer look

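The difference of the caffeine effects between the lines (log2, SW620 minus SW480, edgeR's quasi-likelihood test of the difference itself) passed the test in the genes given here, at most 3 of each list by adjusted p. NR4A1 (1.57) and FOS (0.75) were the 2 among the 10 genes, and in each the SW620 libraries were higher and the SW480 libraries lower with caffeine. Of the other bZIP factors, these were MAFF (1.47), FOSL2 (1.35) and JDP2 (-1.46). Of the early-response genes, they were IER3 (1.14), KLF6 (1.10) and PPP1R15A (0.87). PER1 (1.64) and NFIL3 (1.09) were CREB-induced genes, and ELK1 (0.67) was a ternary complex factor. VIM (1.43) was an AP-1 target. The FOS difference passed in 12 of 14 alternatives (0.74 to 0.80), missing without SW620 control replicate 1 or replicate 2. The ELK1 call was lost in 6 of the 8 fits that left out a library (log2 0.54 to 0.77 in these). The PPP1R15A call was lost without SW620 control replicate 2 (log2 0.81).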

How the results depend on the processing

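NR4A1 in SW620 was called under all 15 alternatives (log2 0.91 to 1.28). FOS in SW620 was called under 8, and was lost without SW620 caffeine replicate 1 (adjusted p = 0.145), caffeine replicate 2 (0.225), control replicate 1 (0.334) or control replicate 2 (0.25), with no filter (0.0836), with no mitochondrial genes (0.0538), and with the replicate number as a block (0.0786). With each library left out, the genes called out of the 10 numbered 0 to 3 in SW480, 1 to 2 in SW620, 1 to 3 for the difference and 4 to 8 between the lines, and over all genes 56 to 1421, 801 to 3245, 451 to 2188 and 9789 to 12043. The low end of 56 was without SW480 caffeine replicate 2. In SW480 1 of the 10 was called with DESeq2 size factors, the Wald test or limma-voom (FOS) or with no filter (NR4A1). In SW620 1 was called with no filter, the block or no mitochondrial genes. Over all genes, no filter gave 1073 in SW480 and the separate fit 4617 in SW620, and the causes were not tested. With a library left out, some uncalled values changed sign: FOSB in SW480 ran from -0.47 to 0.12, the FOSB difference from -0.28 to 0.32, CREM in SW620 from -0.025 to 0.098 and the CREM difference from -0.19 to 0.012. The labels do not say that replicate numbers mark a shared day. Same-numbered deviations correlated at 0.0134 in SW620 and 0.0265 in SW480, and the replicate block gave 2249 genes in SW620, 590 in SW480, 1087 for the difference and 11397 between the lines, with 1, 0, 2 and 6 of the 10. A count of 0 allows up to 0.129 to 0.190 CPM per library, below every value of the 10 genes.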

Other observations

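The genes whose log2 CPM followed the leading ones most closely over the 8 libraries were listed by Pearson's r among 12455 other genes, as a description of libraries that share groups. For NR4A1 they were CCNG2 (0.990), CENPC (0.987) and EXOC4 (0.986). For FOS they were RIT1 (0.971), GIPR (0.963) and CCNC (0.930), and for JUNB they were CLDN4 (0.972), AGFG2 (0.965) and UVRAG (0.907).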
